A study of Mus musculus with 9 samples.

Results

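The nuclear receptor superfamily was examined in mouse liver as 45 listed genes, found by their gene symbol in the platform annotation of the array. Of these, 41 had a named probe set, 1 each, out of 19494 gene symbols on the array, and 4 (Ppard, Nr1h2, Nr2e3 and Esrra) had none and were not analysed here. The rule for genes with several probe sets, to take the highest mean of the 9 arrays, was needed for no receptor. Liver RNA came from female C57BL/6 mice, given as 6 weeks old in the labels, on 1 array per mouse in 3 groups of 3. Mice were left non-injected (Mock), received AAV-IFNα, or received the AAV combination of AAV-IFNα and AAV-L37pA, and livers were taken 15 days after intravenous injection. AAV-IFNα is an adeno-associated virus of serotype 8 that encodes mouse IFNα1 behind the elongation factor 1α promoter, which is active in many cell types, and AAV-L37pA encodes, behind the same promoter, a peptide that mimics apolipoprotein A-I. Mice given only AAV-L37pA, or a vector without a transgene, were not among the arrays, and more vector in total was injected into the combination mice. Effects of IFNα and of vector injection therefore cannot be told apart against Mock, nor can those of L37pA and of the added vector between the treated groups. According to the methods total RNA was hybridised to Clariom S mouse arrays, whereas the labels give polyA RNA and the series' design text gives another Affymetrix mouse array.

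Nuclear receptors are transcription factors that bind DNA through a pair of zinc fingers and, in most cases, a small lipophilic ligand through a separate domain. Many act as heterodimers with a retinoid X receptor (RXR), exchange corepressors for coactivators when a ligand binds, and switch on enzymes that make, move or break down the ligand itself. In liver they are known as sensors of fatty acids, oxysterols, bile acids, foreign compounds, retinoids, thyroid hormone and glucocorticoids. Their activity is set by ligands and partners as well as by the amount of receptor mRNA, and only mRNA was read here.

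The receptors whose mRNA changed are shown first by their promoters, so that the start regions of the 4 genes can be read beside their values. RefSeq windows of GRCm38.p6, from 250 bases before to 50 bases after an annotated start, matched 41 of the 45 genes by symbol, with 62 windows. These are not the 41 genes with a probe set. Ppard, Nr1h2, Nr2e3 and Esrra had a window, and Thra, Nr3c1, Nr5a1 and Hnf4g had none. Both strands were searched for the receptor half-site AGGTCA, the DR1 repeat of 2 half-sites with 1 base between them, the interferon-stimulated response element (TTTC and TTTC with 2 bases between them), the STAT site TTCNNNGAA, the E-box CACGTG and the GC box GGGCGG, and matches that overlap were each counted. The windows below read 5′ to 3′ on the strand of the gene, with motif matches in capitals. Of 3 Pparg windows the 2 with motif matches are shown (chr6:115360894-115361193 and chr6:115362099-115362398, plus strand). Of 2 overlapping Nr1h3 windows 1 is shown (chr2:91195067-91195366, minus strand), Nr2f6 has a single window (chr8:71381903-71382202, minus strand), and of 4 Esrrg windows the one with the most matches is shown (chr1:187651991-187652290, plus strand).
Pparg first start: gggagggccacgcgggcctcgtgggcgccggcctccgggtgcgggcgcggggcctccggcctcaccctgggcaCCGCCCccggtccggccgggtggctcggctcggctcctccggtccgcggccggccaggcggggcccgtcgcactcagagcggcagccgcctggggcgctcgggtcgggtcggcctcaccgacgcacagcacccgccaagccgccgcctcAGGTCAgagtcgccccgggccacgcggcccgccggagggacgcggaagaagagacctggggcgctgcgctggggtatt
Pparg second start: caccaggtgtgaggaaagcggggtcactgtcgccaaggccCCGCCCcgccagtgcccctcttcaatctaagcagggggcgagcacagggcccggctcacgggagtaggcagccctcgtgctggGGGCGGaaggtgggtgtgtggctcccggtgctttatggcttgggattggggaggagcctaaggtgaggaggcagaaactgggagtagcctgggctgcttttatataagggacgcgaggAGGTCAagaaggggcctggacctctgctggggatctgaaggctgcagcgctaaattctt
Nr1h3: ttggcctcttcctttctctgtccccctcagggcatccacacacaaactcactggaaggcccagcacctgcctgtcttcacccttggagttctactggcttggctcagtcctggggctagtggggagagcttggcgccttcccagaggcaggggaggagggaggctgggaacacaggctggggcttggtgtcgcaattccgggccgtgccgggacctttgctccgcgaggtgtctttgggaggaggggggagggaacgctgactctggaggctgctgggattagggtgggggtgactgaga
Nr2f6: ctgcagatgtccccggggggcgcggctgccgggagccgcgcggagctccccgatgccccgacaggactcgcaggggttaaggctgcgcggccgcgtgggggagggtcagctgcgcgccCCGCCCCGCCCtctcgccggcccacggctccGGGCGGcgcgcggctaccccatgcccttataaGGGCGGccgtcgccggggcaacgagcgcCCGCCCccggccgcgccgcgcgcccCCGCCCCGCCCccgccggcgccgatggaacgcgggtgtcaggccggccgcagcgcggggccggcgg
Esrrg: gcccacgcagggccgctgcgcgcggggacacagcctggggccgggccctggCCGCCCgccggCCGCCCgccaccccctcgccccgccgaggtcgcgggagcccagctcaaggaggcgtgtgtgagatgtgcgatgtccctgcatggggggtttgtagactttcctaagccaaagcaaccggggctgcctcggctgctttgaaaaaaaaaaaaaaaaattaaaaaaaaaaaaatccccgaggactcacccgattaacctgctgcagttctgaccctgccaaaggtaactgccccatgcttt
Both Pparg windows shown hold 1 half-site, on the plus strand downstream of their GC boxes, whereas the third Pparg window, not shown, and both Nr1h3 windows hold none of the motifs. The Nr2f6 window holds 7 GC box matches. The 4 Esrrg windows hold 0, 0, 2 and 1 GC boxes, and the one with 2 is shown. No window of these 4 genes matches the interferon-stimulated response element or the STAT site. Over the listed genes with a window, measured or not, the GC box was found in 23 of 41 (56.1%), against 38.2% of all 27025 genes with a window. The half-site was found in 11 (26.8%), against 18.1%. The interferon-stimulated response element matched 2, Esr1 and Rarg (4.88%), against 3.99% of all genes. The STAT site matched 6 (14.6%) against 9.55%, the E-box 5 (12.2%) against 8.09%, and the DR1 repeat 0 against 0.0481%. A gene counts here if any of its windows matches. By window, 62 against 32851, the shares lay nearer. They were 45.2% against 35.7% for the GC box and 19.4% against 16.3% for the half-site. For the interferon-stimulated response element they were 3.23% against 3.44%, and for the STAT site 9.68% against 8.3%. A match is a run of letters and says nothing of binding.

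Most nuclear receptor genes had a signal above the low range in liver. Values are log2 values made by the authors with the RMA algorithm, and on this scale a difference of 1 is a 2-fold change. A mean above 5 over the 9 arrays was found for 34 of the 41 genes. The same 34 passed the filter as the methods word it, at least 2 samples of 1 group above 5. As applied here it kept 14715 of 22142 probe sets, whereas the paper's count after filtering is near all of them. Of the 34 genes, 33 exceeded 5 on every array, with Pgr, the progesterone receptor, as the exception. The other 7 stayed under the filter. They were Rorb, Hnf4g, Esr2, Esrrb, Nr4a2, Nr4a3 and Nr0b1, with means from 3.18 (Esrrb) to 4.75 (Nr0b1). Replicates spread by a median SD of 0.184 over the 34 tested receptors, beside 0.184 over all 14715 probe sets tested. Rarg, a retinoic acid receptor, spread least (SD 0.101) and Nr0b2, the small heterodimer partner SHP, spread most (SD 0.504). Precision is limited by the number of arrays, whose medians ran from 5.78 to 5.83. Mock replicate 2 stood apart for these genes. It was the lowest of the 9 arrays for 12 of 34 receptors (35.3%), against 12.2% of all probe sets tested, so results against Mock that turn on it are given also without it.

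**Figure D1:**
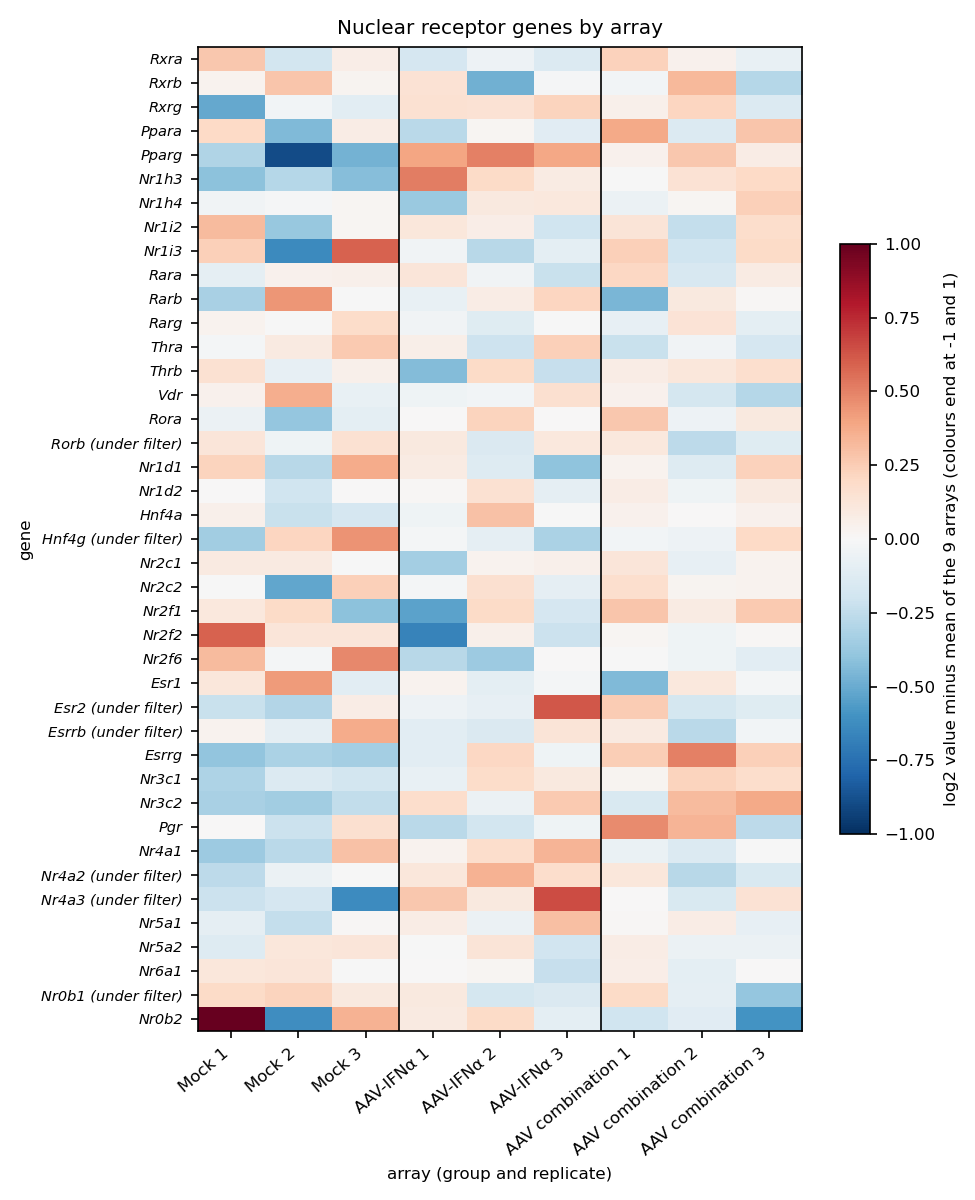
Heat map of the log2 value of each measured nuclear receptor gene (rows) on each array (columns, by group and replicate), minus the mean of the 9 arrays, with the colours ending at -1 and 1. Pparg and Nr1h3 are below their mean on all 3 Mock arrays, and Mock replicate 2 is the lowest array for 12 of the 34 genes tested.

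The first comparison asked which receptor mRNAs differed between AAV-IFNα-treated and non-injected livers. Of the 34 receptors tested, Pparg and Nr1h3 rose and Nr2f6 fell, 3 in all (8.82%), against 16.3% of all probe sets tested. By direction, 11.2% of all probe sets rose and 5.06% fell. The median log2 fold change of the 34 was -0.06, beside -0.02 over all probe sets, and single receptors lay between -0.55 (Nr2f2) and 0.99 (Pparg). At an unadjusted p under 0.05, 6 receptors were higher and 2 lower, against 31.9% of all probe sets in either direction, and by the methods' B-statistic above 0 only Pparg was called, against 6.03%. The limma 95% interval of the difference lay within 1 log2 unit of no change for 33 of 34 receptors, and within 0.5 for 15.

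Against Mock, the AAV combination changed 2 of the 34 receptors (5.88%), Pparg and Esrrg, both higher, against 5.21% of all probe sets tested (4.19% higher and 1.03% lower). The median log2 fold change was 0.04, beside 0.0017 over all probe sets, with a range from -0.55 (Nr0b2) to 0.69 (Pparg). At an unadjusted p under 0.05, 5 receptors were higher and 0 lower, against 22.5% of all probe sets, and by the B-statistic only Esrrg was called, against 2.4%. Without Combination replicate 2 no receptor passed the limma test in this comparison, and without Combination replicate 3 only Esrrg did. Without Mock replicate 2 the calls were 1 higher, Esrrg, and 1 lower, Nr0b2. Both comparisons use the same Mock arrays, so their values are given side by side and not as 2 independent results.

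Between the treated groups, 0 of 34 receptors were called by limma, against 2.6% of all probe sets tested (0.394% higher and 2.2% lower in the combination). Esrrg alone had an unadjusted p under 0.05, against 11.8% of all probe sets, and 0 receptors passed the B-statistic, against 1.78%. The log2 differences of the combination from AAV-IFNα ranged from -0.36 (Nr0b2) to 0.38 (Nr2f1), with a median of 0.06 beside 0.0052 over all probe sets, and the lowest adjusted p was 0.36. For 21 of 34 receptors the 95% interval lay within 0.5 log2 units of no change, and for 33 within 1, with Nr0b2 outside. A receptor without a call is thus bounded in its change, not shown to be equal.

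**Figure D2:**
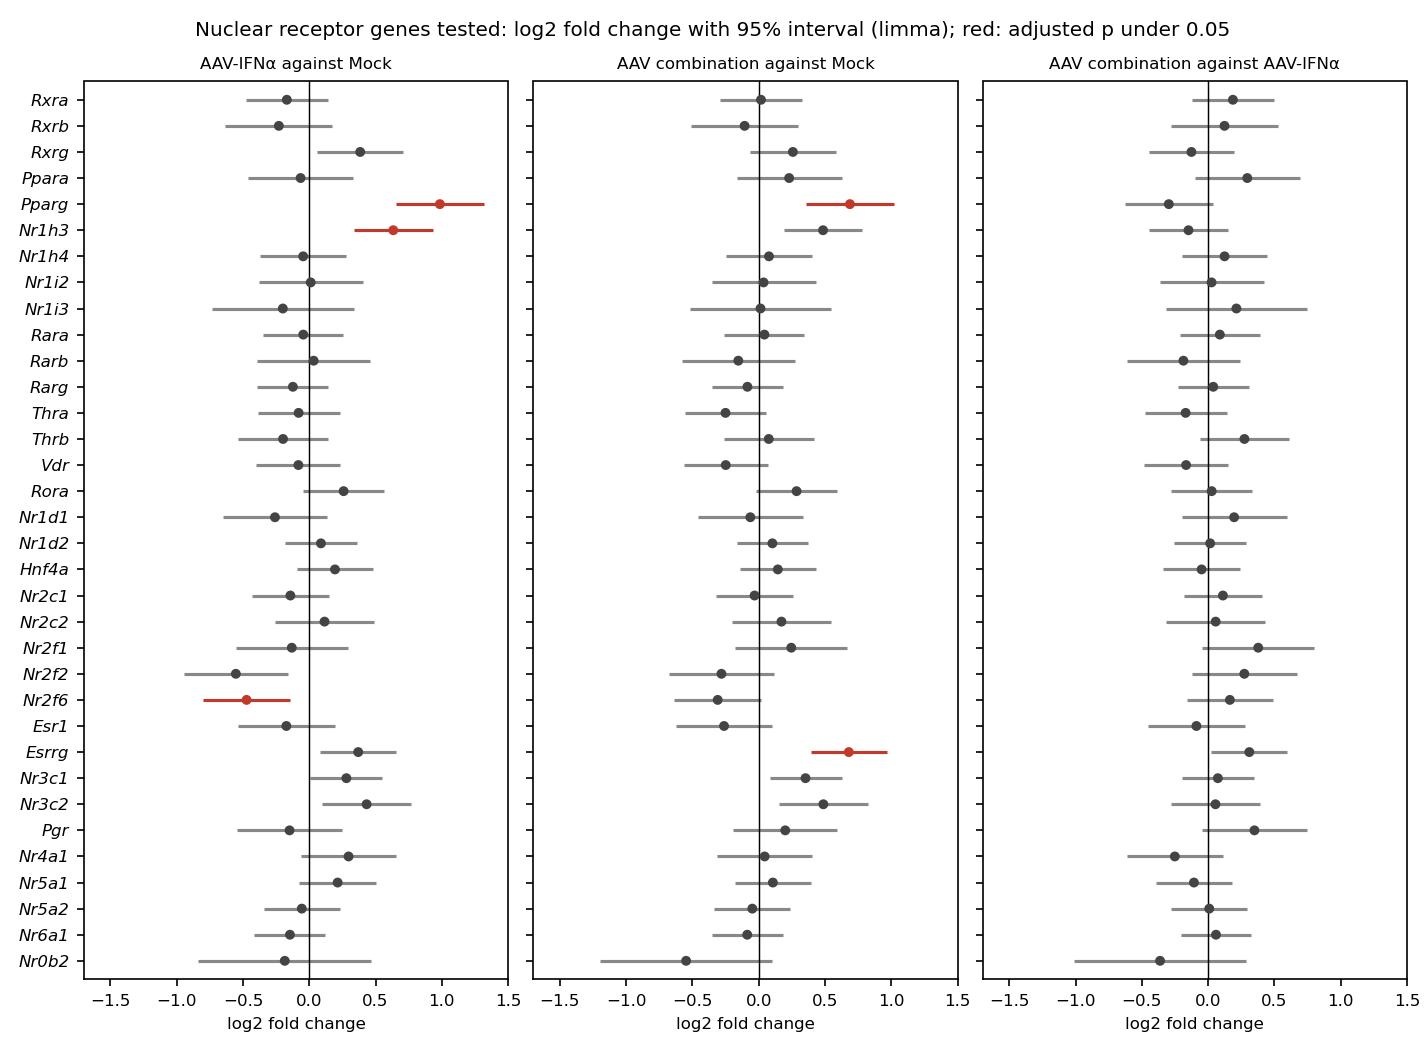
Log2 fold change with its 95% interval (limma, 3 arrays a group) of the 34 nuclear receptor genes tested, in a panel for each of the 3 comparisons; red marks an adjusted p under 0.05. Pparg, Nr1h3 and Nr2f6 are red for AAV-IFNα against Mock, Pparg and Esrrg for the combination against Mock, and none between the treated groups.

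Among the lipid, bile acid and xenobiotic sensors that pair with RXR, 9 of 11 genes were tested, and Pparg and Nr1h3 carried all calls. Pparg, the receptor known for driving fat cell formation and lipid storage and also used by macrophages (probe set TC0600001279.mm.2), had log2 values of 6.53, 5.93 and 6.36 in Mock, 7.22, 7.34 and 7.22 with AAV-IFNα, and 6.88, 7.10 and 6.91 in the combination. All treated arrays lay above all Mock arrays, and the combination arrays lay between the other groups without overlap. The AAV-IFNα arrays exceeded Mock by a log2 difference of 0.99 (SE 0.15, adjusted p = 0.00072) and the combination arrays by 0.69 (SE 0.15, adjusted p = 0.022). The difference of the combination from AAV-IFNα, -0.30 on the log2 scale (95% interval -0.63 to 0.04, adjusted p = 0.51), did not pass the test. Without Mock replicate 2, where Pparg was lowest, the AAV-IFNα change was 0.82 (adjusted p = 0.0018) and the combination change 0.52 (adjusted p = 0.050, not called). Leaving out Combination replicate 2 (0.62, adjusted p = 0.094) or Combination replicate 3 (0.72, adjusted p = 0.070) also ended the combination call.

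Nr1h3 encodes LXRα, the oxysterol receptor of hepatocytes and macrophages (probe set TC0200004109.mm.2). Its log2 values were 8.45, 8.57 and 8.43 in Mock, 9.36, 9.05 and 8.94 with AAV-IFNα, and 8.85, 8.998 and 9.05 in the combination. Every treated array was above every Mock array, and the treated groups overlapped. Nr1h3 rose with AAV-IFNα by 0.63 on the log2 scale (SE 0.14, adjusted p = 0.0072). In the combination its log2 fold change of 0.49 (95% interval 0.19 to 0.78, adjusted p = 0.060) stayed outside the call, and 5 of 18 alternatives brought it inside, among them leaving out AAV-IFNα replicate 1 (adjusted p = 0.046). The treated groups differed by -0.15 (95% interval -0.45 to 0.15, adjusted p = 0.78).

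Both of these receptors are also expressed by liver macrophages, and the arrays read whole liver, in which more cells of a type and more RNA per cell cannot be told apart. Of 8 Kupffer cell markers, 5 rose with AAV-IFNα (62.5%, against 11.2% of all probe sets tested) and 4 in the combination (50%, against 4.19%). Clec4f and Timd4 were called in neither. Their log2 fold changes were 0.05 and 0.35 with AAV-IFNα, and 0.37 and -0.06 in the combination. Summed on the linear scale, the 8 markers ran from 1476 to 1728 in Mock and from 3806 to 4502 with AAV-IFNα. In the combination the sum ran from 2879 to 3764, so it followed the order of the Pparg group means. The means of Marco, Cd5l, Adgre1 and C1qa had this order too. Clec4f and Vsig4 were instead highest in the combination, and Timd4 was lowest there. The 7 monocyte markers measured summed to 490 to 518 in Mock, 1092 to 2476 with AAV-IFNα and 688 to 949 in the combination. For the groups in turn, the 8 NK cell markers summed to 284 to 327, 777 to 1100 and 353 to 396. The 6 T cell markers measured summed to 195 to 227, 264 to 440 and 200 to 225. No count of calls is given for these 3 lists, because some of their genes (Ly6c2, Ccr2, Itgam, Ncr1, Klrk1, Cd3g and Cd8b1) passed the filter only through treated groups. Klrb1c and Eomes, of the NK cell list, and 4 of 5 measured B cell markers, Cd79a, Ms4a1, Pax5 and Cd22, were at or under 5 on all arrays, and no B cell marker was tested. Hepatocyte markers, the check of the labelled tissue, summed to 65038 to 68565 in Mock and 63854 to 64750 with AAV-IFNα. In the combination they summed to 65884 to 67107, so every AAV-IFNα array was below every other array. With AAV-IFNα 1 of 11, Cyp2e1, fell (9.09%, against 5.06% of all probe sets tested). The part of these cells in the Pparg and Nr1h3 values was not tested.

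**Figure D3:**
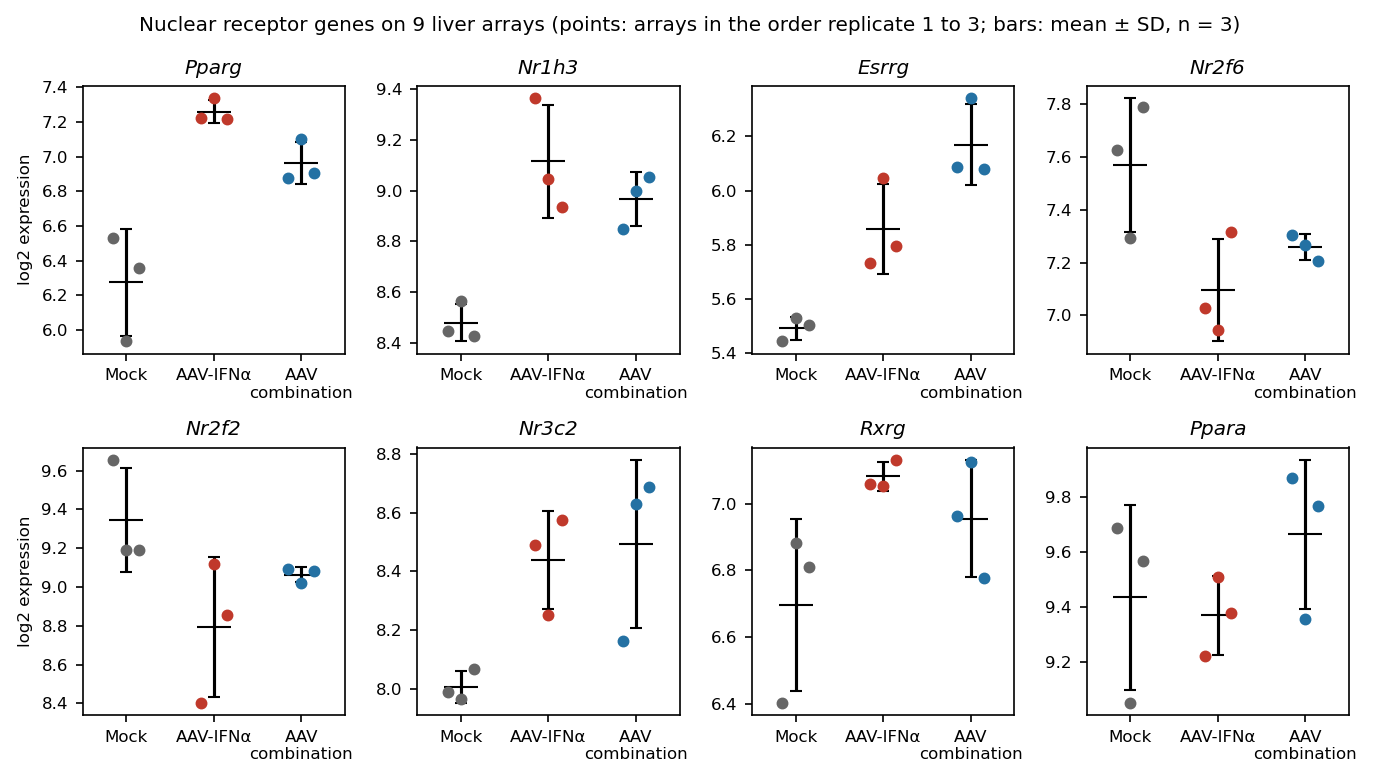
Log2 expression of 8 nuclear receptor genes in Mock, AAV-IFNα and AAV combination livers, with points for the single arrays and bars for mean ± SD (n = 3). Every treated array is above every Mock array for Pparg, Nr1h3, Esrrg and Nr3c2, whereas the groups overlap for Nr2f6 and Ppara.

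The other sensors gave no call. Ppara, the fatty acid receptor that governs hepatic fat oxidation, had log2 values of 9.69, 9.05 and 9.57 in Mock, 9.22, 9.51 and 9.38 with AAV-IFNα, and 9.87, 9.35 and 9.77 in the combination. The 3 groups overlapped. Its log2 fold change was -0.07 with AAV-IFNα (95% interval -0.46 to 0.33, adjusted p = 0.83) and 0.23 in the combination (95% interval -0.17 to 0.63, adjusted p = 0.49). The bile acid receptor FXR (Nr1h4) changed by -0.05 (95% interval -0.37 to 0.28) and 0.08 (-0.25 to 0.40), and the xenobiotic receptor PXR (Nr1i2) by 0.01 (-0.38 to 0.40) and 0.04 (-0.36 to 0.43) on the log2 scale. CAR (Nr1i3), the other xenobiotic receptor, spread widely in Mock, from 9.42 in replicate 2 to 10.64 in replicate 3, and its interval with AAV-IFNα ran from -0.73 to 0.33. Of the RXR partners, Rxra differed by -0.17 (95% interval -0.48 to 0.14) and 0.02 (-0.29 to 0.32), and Rxrb by -0.23 (-0.63 to 0.17) and -0.11 (-0.51 to 0.30). Rxrg was 6.40, 6.88 and 6.81 in Mock and 7.06, 7.05 and 7.13 with AAV-IFNα, without overlap, yet its log2 fold change of 0.38 (95% interval 0.06 to 0.71) missed the call at an adjusted p of 0.098.

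The receptors for retinoic acid, thyroid hormone and vitamin D were all tested, and 0 of 6 were called in any comparison by limma. None had an unadjusted p under 0.05 or a B-statistic above 0. Of all probe sets tested, 16.3%, 5.21% and 2.6% were called in the 3 comparisons. An unadjusted p under 0.05 was found for 31.9%, 22.5% and 11.8%, and a B-statistic above 0 for 6.03%, 2.4% and 1.78%. With 6 genes, a count of 0 is not read as a trait of these receptors. With AAV-IFNα the log2 fold changes lay between -0.20 (Thrb, the thyroid hormone receptor β of hepatocytes) and 0.03 (Rarb), and in the combination between -0.25 (Thra) and 0.08 (Thrb). Thra, thyroid hormone receptor α, was 6.53, 6.65 and 6.82 in Mock and 6.34, 6.52 and 6.39 in the combination. The combination arrays were all lower than the Mock arrays, by a margin of 0.01 at the nearest, with an adjusted p of 0.32. Of the clock receptors, which act on the circadian genes of liver, Nr1d1 and Nr1d2 (REV-ERBα and β) and Rora were tested. In any comparison 0 of 3 were called by limma, by an unadjusted p under 0.05 or by the B-statistic. Beside the same shares of all probe sets, 0 of 3 is likewise not read as a trait of the clock receptors. Rora was above the highest Mock array on every treated array, with log2 differences of 0.26 and 0.29 (adjusted p = 0.22 and 0.25). The nearest arrays were almost level, at 8.025 in Combination replicate 2 and 8.022 in Mock replicate 1. Nr1d1 had the widest interval of the 3, from -0.65 to 0.14 with AAV-IFNα.

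Nr2f6, an orphan receptor of the COUP-TF family known to restrain cytokine genes in T cells (probe set TC0800002422.mm.2), was the only receptor called lower. Its log2 values were 7.63, 7.29 and 7.79 in Mock, 7.03, 6.95 and 7.31 with AAV-IFNα, and 7.31, 7.27 and 7.21 in the combination. Mock replicate 2 lay below AAV-IFNα replicate 3, so the groups overlapped. The log2 fold change with AAV-IFNα was -0.47 (SE 0.15), with an adjusted p of 0.0496, at the edge of the threshold, and 10 of 18 alternatives ended the call. Single arrays decided it, since leaving out Mock replicate 1 or 3, AAV-IFNα replicate 1 or 2, or any combination array ended the call. Without Mock replicate 3 the change was -0.36 (adjusted p = 0.17), and without Mock replicate 2 it was -0.61 (adjusted p = 0.016). In the combination Nr2f6 differed from Mock by -0.31 (95% interval -0.64 to 0.02, adjusted p = 0.25). Its relative Nr2f2 (COUP-TFII), a factor of vascular and stromal cells as well as hepatocytes, had the lowest fold change with AAV-IFNα among the receptors. It was 9.66, 9.19 and 9.19 in Mock, 8.40, 9.12 and 8.86 with AAV-IFNα, and 9.09, 9.02 and 9.08 in the combination, so both treated groups were below Mock without overlap. The difference of -0.55 (95% interval -0.95 to -0.16, adjusted p = 0.055) missed the call, and 5 of 18 alternatives brought it inside, among them leaving out AAV-IFNα replicate 2 (-0.72, adjusted p = 0.029). Beside Nr2f2, the summed stellate cell markers were 2392 to 2857 in Mock and 1899 to 2713 with AAV-IFNα, and the sinusoidal endothelial markers 1604 to 1891 and 1905 to 2158. With AAV-IFNα 2 of 8 stellate markers tested, Reln and Lrat, fell (25%, against 5.06% of all probe sets tested) and 0 rose. Of 8 endothelial markers 3 rose and 1 fell (50%, against 16.3% of all probe sets called in either direction). The part of these cells in the Nr2f2 values was not tested.

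Hnf4a, the factor that maintains hepatocyte identity, was not called in any comparison. Its log2 values ran from 9.47 in Mock replicate 2 to 9.98 in AAV-IFNα replicate 2. The differences from Mock were 0.19 (95% interval -0.09 to 0.48) with AAV-IFNα and 0.14 (-0.14 to 0.43) in the combination. Nr5a2, or LRH-1, which with SHP regulates bile acid synthesis, differed by -0.06 (95% interval -0.34 to 0.23) and -0.05 (-0.33 to 0.24). None of the 3 monomer receptors (Nr5a1, Nr5a2 and Nr6a1) was called by limma in any comparison, with an unadjusted p under 0.05 or a B-statistic above 0 in 0 of 3. Of all probe sets tested, 16.3%, 5.21% and 2.6% were called in the 3 comparisons, and 31.9%, 22.5% and 11.8% had an unadjusted p under 0.05. With 3 genes, a count of 0 is not read as a trait of these receptors.

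Esrrg, the oestrogen-related receptor γ, an orphan that is known for driving mitochondrial and gluconeogenic genes (probe set TC0100001806.mm.2), rose in the combination. Its log2 values were 5.44, 5.53 and 5.50 in Mock, 5.73, 6.05 and 5.80 with AAV-IFNα, and 6.09, 6.34 and 6.08 in the combination. The 3 groups did not overlap and the combination was highest. The log2 fold change of the combination from Mock was 0.68 (SE 0.13, adjusted p = 0.0096), and that of AAV-IFNα was 0.37 (95% interval 0.08 to 0.66, adjusted p = 0.075). The treated groups differed by 0.31 (95% interval 0.02 to 0.60, adjusted p = 0.36). Without Combination replicate 2 the combination change was 0.59 and no longer called (adjusted p = 0.053), and without Mock replicate 2 it was 0.70 (adjusted p = 0.020).

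The steroid receptors of stress and salt balance were higher in treated livers without a call. Nr3c2, the mineralocorticoid receptor, was 7.99, 7.96 and 8.07 in Mock, 8.49, 8.25 and 8.57 with AAV-IFNα, and 8.16, 8.63 and 8.69 in the combination. No treated array overlapped Mock, and the log2 differences were 0.43 (95% interval 0.10 to 0.77, adjusted p = 0.074) and 0.49 (0.15 to 0.82, adjusted p = 0.087). Without Combination replicate 1 both were called (0.43, adjusted p = 0.038, and 0.65, adjusted p = 0.024). Nr3c1, the glucocorticoid receptor, was 7.14, 7.31 and 7.26 in Mock, 7.38, 7.63 and 7.54 with AAV-IFNα, and 7.47, 7.67 and 7.63 in the combination. It too had no overlap with Mock, at 0.28 (adjusted p = 0.15) and 0.35 (adjusted p = 0.12). Esr1, oestrogen receptor α, differed by -0.17 (95% interval -0.54 to 0.19) and -0.26 (-0.63 to 0.10).

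Of the NR4A receptors, which are known as immediate-early genes, only Nr4a1 passed the filter. It differed by 0.30 with AAV-IFNα (95% interval -0.06 to 0.66, adjusted p = 0.24) and by 0.04 in the combination, and it was called with AAV-IFNα only without Mock replicate 3 (0.50, adjusted p = 0.041). Nr4a3 stayed in the low range, at 4.05, 4.09 and 3.63 in Mock, 4.52, 4.36 and 4.91 with AAV-IFNα, and 4.26, 4.11 and 4.40 in the combination. Both treated groups lay above Mock, and only with no filter was Nr4a3 tested, and then called with AAV-IFNα (0.68, adjusted p = 0.022).

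Nr0b2 (SHP) lacks a DNA-binding domain and represses other nuclear receptors, among them those that drive the bile acid enzymes Cyp7a1 and Cyp8b1. Its log2 values were 9.38, 7.75 and 8.73 in Mock, 8.47, 8.56 and 8.28 with AAV-IFNα, and 8.18, 8.26 and 7.78 in the combination. The Mock arrays alone, from 7.75 to 9.38, spanned the values of all treated arrays. Against Mock the combination differed by -0.55 (95% interval -1.20 to 0.10, adjusted p = 0.30), and without Mock replicate 2 by -0.98 (adjusted p = 0.017). In Mock replicate 2, where Nr0b2 was lowest, Cyp7a1, the rate-limiting enzyme of bile acid synthesis, was the highest of the Mock arrays at 11.06 (9.80 and 9.32 in the others), and so was Cyp8b1 at 9.11 (7.43 and 8.36). Other arrays differed, since Mock replicate 1 exceeded Mock replicate 3 for Nr0b2 and Cyp7a1 alike. AAV-IFNα replicate 2 was the highest of its group for Nr0b2 (8.56), Cyp7a1 (10.06) and Cyp8b1 (8.64). Combination replicate 3 was lowest of its group for Nr0b2 (7.78) and highest for both enzymes (11.15 and 9.03). Mock replicate 2 was also highest of Mock for Fasn (12.01) and Thrsp (12.08). The relation of Nr0b2 to these enzymes was not tested. Neither enzyme was called in any comparison.

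**Figure D4:**
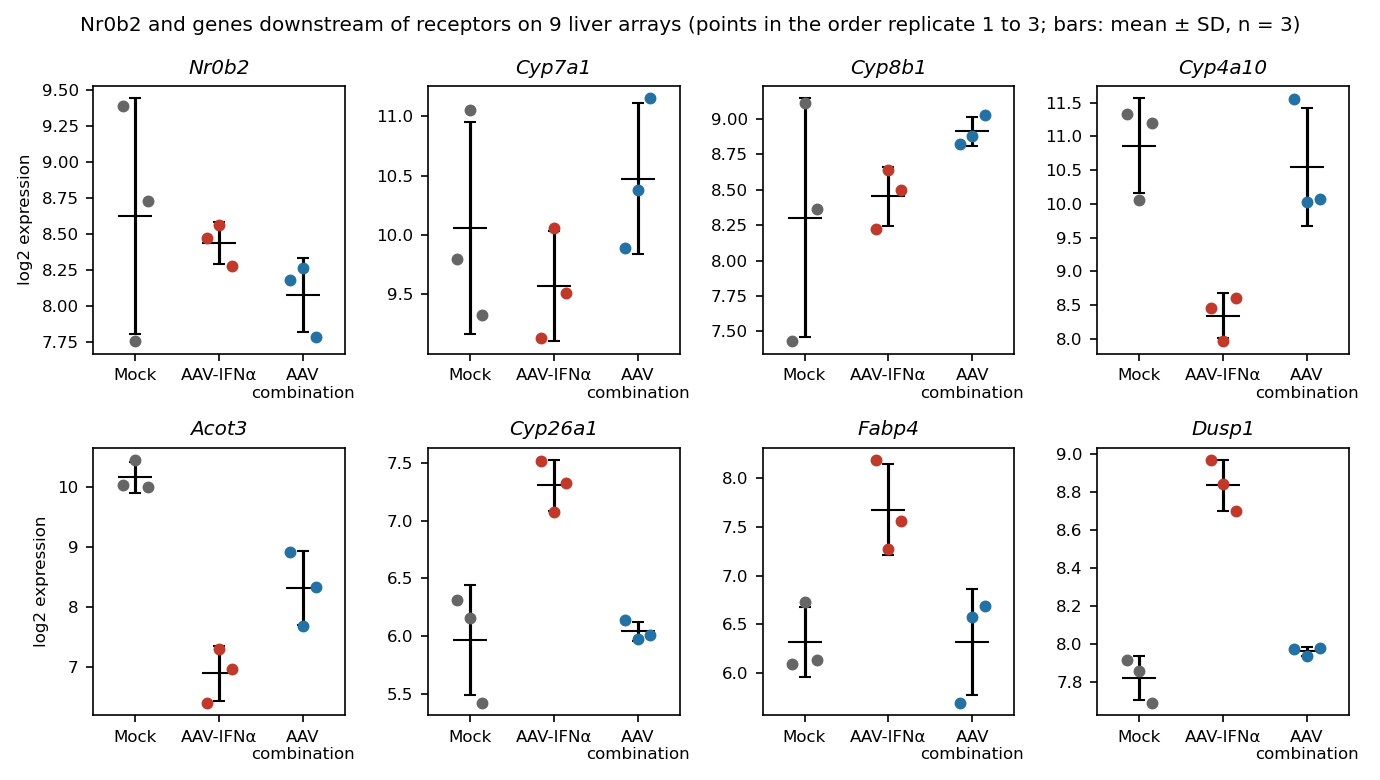
Log2 expression of Nr0b2 and of 7 genes that act downstream of receptors in the 3 groups, with points in the order of replicates 1 to 3 and bars for mean ± SD (n = 3). Mock replicate 2 is lowest for Nr0b2 and highest of Mock for Cyp7a1 and Cyp8b1. AAV-IFNα replicate 2 is highest of its group for all of these. Acot3, Cyp26a1, Fabp4 and Dusp1 separate AAV-IFNα from Mock on every array.

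The enzymes and carriers that make, bind or break down receptor ligands were described as a list of 26 genes, of which 22 were tested. With AAV-IFNα 4 rose and 5 fell (40.9%, against 16.3% of all probe sets tested), with a median log2 fold change of -0.10. Cyp26a1, which breaks down retinoic acid and is itself a retinoic acid receptor target, was 6.32, 6.16 and 5.42 in Mock, 7.52, 7.08 and 7.33 with AAV-IFNα, and 6.14, 5.98 and 6.02 in the combination. It was thus high on the AAV-IFNα arrays alone, by 1.34 against Mock (adjusted p = 0.00055), and the combination differed from AAV-IFNα by -1.26 (adjusted p = 0.0055). Fabp4, a fatty acid carrier of macrophages and fat cells and a PPARγ target, was 6.09, 6.73 and 6.13 in Mock, 8.19, 7.27 and 7.56 with AAV-IFNα, and 5.69, 6.58 and 6.69 in the combination. With AAV-IFNα it rose by 1.36 (adjusted p = 0.0053), and it differed by -1.36 between the combination and AAV-IFNα (adjusted p = 0.023). That second call was lost when AAV-IFNα replicate 1 (-1.10, adjusted p = 0.11), Combination replicate 1 (-1.05, adjusted p = 0.095) or Combination replicate 2 (-1.49, adjusted p = 0.052) was left out. Fabp4 and Pparg, though both higher with AAV-IFNα, thus had different values in the combination: Fabp4 was at the Mock mean of 6.32 and Pparg 0.69 above its own.

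Aldh1a1, which makes retinoic acid, rose by log2 fold changes of 0.96 with AAV-IFNα (adjusted p = 0.001) and 0.79 in the combination (adjusted p = 0.011). Cyp7b1, which clears oxysterols, rose by 0.87 (adjusted p = 0.0055) and 1.00 (adjusted p = 0.0056). The combination call of Aldh1a1 was lost without Combination replicate 3 (0.71, adjusted p = 0.066). In the combination Aldh1a1 and Cyp7b1 were the only calls against Mock (2 of 22, or 9.09%, against 5.21% of all probe sets tested). Cyp26a1 and Fabp4 were the only ones between the treated groups (9.09%, against 2.6%). The 5 genes that fell with AAV-IFNα, some of them named after their values were seen, were Fabp5 (-2.29, adjusted p = 0.0071) and Fabp1 (-0.78, adjusted p = 0.016), which carry fatty acids, Lrat (-0.87, adjusted p = 0.0077), which esterifies retinol and marks stellate cells, Cyp27a1 (-0.45, adjusted p = 0.034), which makes oxysterols and bile acids, and Fkbp4 (-0.53, adjusted p = 0.039), a steroid receptor chaperone. All 5 stayed lower without each array of these groups, and only Fabp5 and Lrat stayed called each time. Without Mock replicate 1 the log2 fold changes of the other 3 were -0.71 (Fabp1), -0.42 (Cyp27a1) and -0.52 (Fkbp4), and without AAV-IFNα replicate 2 they were -0.72, -0.50 and -0.48, none of them called. Fabp1 was also not called without Mock replicate 3 (-0.75), nor Cyp27a1 and Fkbp4 without Mock replicate 2 (-0.43 and -0.46) or AAV-IFNα replicate 1 (-0.33 and -0.40), nor Fkbp4 without combination replicate 2 or 3 (-0.53 each).

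Coregulators, the proteins that receptors recruit to open or close chromatin, were 23 tested genes of 26 listed, and 3 were called with AAV-IFNα (13%), a share under the 16.3% of all probe sets tested. Med1, the Mediator subunit that contacts liganded receptors, was 7.32, 7.58 and 7.21 in Mock, 8.06, 8.09 and 7.99 with AAV-IFNα, and 7.38, 7.80 and 7.88 in the combination. It rose by 0.68 on the log2 scale (adjusted p = 0.0090), without overlap between AAV-IFNα and the other groups. Pnrc2, a small coactivator, rose by 0.59 (adjusted p = 0.010), and Hr, a corepressor named for the hairless mouse, fell by 0.64 (adjusted p = 0.0078). These calls held without each array in turn. None of the 23 was called by limma in the combination against Mock (5 at an unadjusted p under 0.05, 0 by the B-statistic) or between the treated groups (2 and 0). Of all probe sets tested, 5.21% and 2.6% were called in these 2 comparisons. An unadjusted p under 0.05 was found for 22.5% and 11.8% of them, and a B-statistic above 0 for 2.4% and 1.78%. The coregulators' median log2 fold change was 0.23 with AAV-IFNα and 0.24 in the combination, against -0.02 and 0.0017 over all probe sets tested.

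Genes known as receptor targets were tested in lists named for the receptor, 85 genes in all. With AAV-IFNα 16 were called, 6 higher and 10 lower (18.8%, near the 16.3% of all probe sets tested). The 10 include Elovl3, which passed the filter through Mock alone, where it was high. In the combination 2 were higher and 3 lower than Mock (5.88%, near the 5.21% of all), and between the treated groups 2 were higher and 1 lower in the combination (3.53%, beside 2.6% of all). A target's level is not a measure of one receptor alone, since many of these genes answer to several signals.

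The list of PPARα targets, enzymes of fatty acid oxidation and acyl-CoA hydrolysis among them, held most of the lower calls. With AAV-IFNα 7 of 19 fell (36.8%, against 5.06% of all probe sets tested) and 0 rose (against 11.2%), with a median log2 fold change of -0.68. Acot3, an acyl-CoA thioesterase of peroxisomes, was 10.03, 10.46 and 9.99 in Mock, 6.40, 7.31 and 6.98 with AAV-IFNα, and 8.91, 7.68 and 8.34 in the combination. The groups did not overlap, and the combination lay between the others. Its log2 fold change was -3.26 with AAV-IFNα (adjusted p = 3.9e-06) and -1.85 in the combination (adjusted p = 0.0016), and the combination exceeded AAV-IFNα by 1.42 (adjusted p = 0.019). Cyp4a10, a fatty acid hydroxylase, was 11.33, 10.05 and 11.20 in Mock, 8.46, 7.96 and 8.60 with AAV-IFNα, and 11.55, 10.02 and 10.07 in the combination. It fell by 2.52 with AAV-IFNα (adjusted p = 0.00069), was not called in the combination against Mock (-0.31, adjusted p = 0.67), and was higher in the combination than with AAV-IFNα by 2.20 (adjusted p = 0.0097). Acot1 fell by 3.21 and Acot4 by 1.34 with AAV-IFNα (adjusted p = 0.0014 for each), and Acot4 alone besides Acot3 was called lower in the combination (-0.90, adjusted p = 0.039), a call lost without Mock replicate 1 (-0.75) or 3 (-0.84), AAV-IFNα replicate 3 (-0.90), or Combination replicate 2 (-0.66) or 3 (-0.92). Pdk4, Acaa1b and Cyp4a14, named after their values were seen, were the other 3 that fell with AAV-IFNα, by log2 fold changes of -0.71, -0.85 and -2.75. They stayed lower but were not called without Mock replicate 1 (-0.63, -0.68 and -2.36) or Mock replicate 3 (-0.66, -0.85 and -2.56). The call was also lost for Pdk4 (-0.68) and Acaa1b (-0.78) without AAV-IFNα replicate 1, and for Acaa1b (-0.81) and Cyp4a14 (-2.16) without AAV-IFNα replicate 2.

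Arrays stood apart within groups for this list. Mock replicate 2 was the lowest Mock array for 18 of 19 PPARα targets (94.7%, against 33.3% of all probe sets tested), as it was for Ppara itself, and Combination replicate 1 was the highest combination array for 19 of 19 (against 39.0%). Without Mock replicate 2, 8 fell with AAV-IFNα (median -0.83), and without Mock replicate 1 or Mock replicate 3, 4 fell (medians -0.44 and -0.66). The share of all probe sets called in these fits is not given here. Between the treated groups the calls of Acot3 and Cyp4a10 rested on single arrays too. Acot3 was not called without AAV-IFNα replicate 1 (1.17, adjusted p = 0.093), Combination replicate 1 (1.12, adjusted p = 0.086) or Combination replicate 3 (1.40, adjusted p = 0.059), and Cyp4a10 was not called without AAV-IFNα replicate 2 (2.01, adjusted p = 0.051). With a trended and robust prior neither was called (adjusted p = 0.053 and 0.10). The median of the list between the treated groups was 0.33, and 0.10 without Combination replicate 1.

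The lists of the other receptors are set beside 16.3% of all probe sets called with AAV-IFNα and 5.21% in the combination against Mock. With AAV-IFNα, 18.2% of LXR targets were called, 18.2% of CAR and PXR targets and 12.5% of FXR targets. The share was 16.7% each for glucocorticoid and thyroid hormone receptor targets. In the combination it was 18.2% for LXR and 9.09% for CAR and PXR, and the remaining lists of this kind held no call. These lists hold 6 to 12 tested genes. Of 11 LXR targets, Abcg5, which exports sterols into bile, rose in both treated groups (log2 fold change 0.57, adjusted p = 0.034, for AAV-IFNα, and 0.74, adjusted p = 0.022, for the combination), and Pltp, a phospholipid transfer protein, fell (log2 fold change -1.21, adjusted p = 0.014, and -1.19, adjusted p = 0.036). Without Mock replicate 2 the Abcg5 change with AAV-IFNα was 0.38 and that of Pltp in the combination -0.79, neither called (adjusted p = 0.10 and 0.060). The AAV-IFNα call of Abcg5 was also lost without any 1 of the AAV-IFNα arrays (0.50 to 0.64) and that of Pltp without AAV-IFNα replicate 1 (-1.09), and the combination calls were lost without Combination replicate 1 or 3 for Abcg5 (0.75 and 0.67) and without Mock replicate 3 or any combination array for Pltp (-1.31 to -1.12). The median of the LXR list was -0.03 and -0.09, beside the rise of Nr1h3 itself. Between the treated groups 0 of 11 were called, against 2.6% of all probe sets tested. At an unadjusted p under 0.05 there was 1, against 11.8%, and by the B-statistic 0, against 1.78%. Of 8 FXR targets only Slco1a1, an organic anion importer, was called, lower by 3.10 with AAV-IFNα (adjusted p = 0.0093). Of 11 CAR and PXR targets, the conjugate exporters Abcc3 (0.69, adjusted p = 0.0023) and Abcc2 (0.50, adjusted p = 0.026) rose with AAV-IFNα, and Abcc3 (0.64, adjusted p = 0.010) in the combination. Without Mock replicate 2 Abcc2 was not called (0.39, adjusted p = 0.081), nor was it without AAV-IFNα replicate 1 or 2 (0.49 and 0.50), and without Combination replicate 3 the Abcc3 call in the combination was lost (0.61, adjusted p = 0.059).

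Among 12 glucocorticoid receptor targets, Dusp1, a phosphatase that shuts off MAP kinases, was 7.91, 7.86 and 7.69 in Mock, 8.97, 8.84 and 8.70 with AAV-IFNα, and 7.97, 7.93 and 7.98 in the combination. It was high on the AAV-IFNα arrays alone, by 1.02 against Mock (adjusted p = 9.2e-05), and the combination lay below AAV-IFNα by a log2 difference of -0.88 (adjusted p = 0.0028). Tdo2, which degrades tryptophan, was also higher with AAV-IFNα, at 0.65 (adjusted p = 0.017), and the call was lost without Mock replicate 2 (0.51, adjusted p = 0.055) or 3 (0.58) and without AAV-IFNα replicate 1 (0.65) or 2 (0.63). Bcl3, of 6 thyroid hormone receptor targets, rose with AAV-IFNα by 0.75 (adjusted p = 0.026) and was not called without Mock replicate 3 (0.48, adjusted p = 0.081) or without AAV-IFNα replicate 1 (0.70) or 2 (0.65). Elovl3, a fatty acid elongase and 1 of 8 REV-ERB and ROR targets, passed the filter through Mock alone, the group where it was high. Its log2 values were 5.34, 4.37 and 6.10 in Mock and at or under 3.89 on all AAV-IFNα arrays. In the combination they were 5.52, 4.45 and 4.72. Its call as lower with AAV-IFNα is tied to the filter and is not read as a result. The 11 HNF4α targets gave 0 calls by limma in each comparison, with 2, 1 and 0 at an unadjusted p under 0.05 and 0 by the B-statistic. Of all probe sets tested, 16.3%, 5.21% and 2.6% were called in the 3 comparisons, and 31.9%, 22.5% and 11.8% had an unadjusted p under 0.05.

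**Figure D5:**
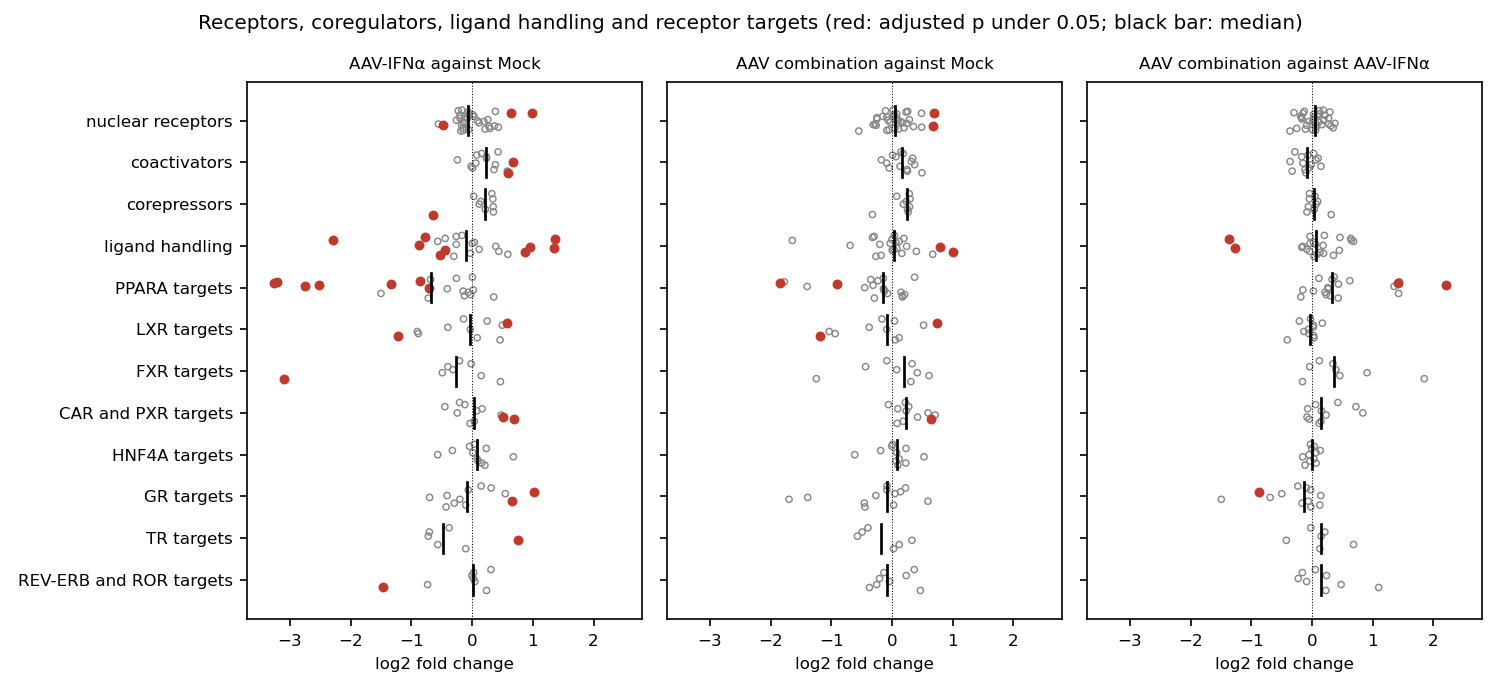
Log2 fold change of each gene tested, by list, in a panel for each of the 3 comparisons; red points have an adjusted p under 0.05 and black bars are medians. The nuclear receptors lie between -0.55 and 0.99 with AAV-IFNα against Mock, whereas PPARα targets reach -3.26 with a median of -0.68.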

How the data were processed

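Liver RNA of 9 mice was measured on 1 array per mouse, with the group and replicate number taken from the sample titles. The deposited values are on the log2 scale, as the authors made them with RMA, which corrects the background, normalizes between arrays and summarises probes into probe sets. The platform annotation gives 1 gene symbol to 19527 of 22142 probe sets and several to 0, and 2615 are unnamed here. The 14715 probe sets above 5 in 2 or more samples of a group were tested two-sided with limma 3.58.1 in R 4.3.3, in 1 fit over all arrays with 6 residual and 6.91 prior degrees of freedom, and Benjamini-Hochberg adjustment over all of them. Genes with an adjusted p under 0.05 are called. The methods' threshold, a B-statistic above 0 with limma's prior proportion of 0.01, was counted beside it. Intervals cover 95% and are not adjusted. With 3 arrays against 3 an exact permutation test cannot go below p = 0.10.

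The receptors, coregulators, ligand handling genes, receptor targets and cell type markers were listed with earlier results of these data known, so they are described by counts and medians without a test of a list. Named are every receptor called, other receptors by level, SD and largest change, and up to 3 genes a list with the smallest p in each comparison. Others are said to be named after their values were seen. Of 6 cholangiocyte markers, 3 were tested and 0 called (0 at an unadjusted p under 0.05 and 0 by the B-statistic). The share called of all probe sets tested was 16.3%, 5.21% and 2.6% in the 3 comparisons. Summed marker levels add 2 to the power of the log2 value over the measured genes of a list. Promoter windows and their motif counts use RefSeq sequence of GRCm38.p6. The annotation of the array names no build. The limma step was tested on simulated arrays with known changes, and matplotlib 3.10.9 in Python 3.11.15 drew the figures.

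Alternatives changed 1 choice at a time: the filter (none, or above 6), the prior (trended and robust), the arrays fitted (the 2 groups compared), a block for the replicate number, the scaling (a further quantile normalization, or centring each array on its median), weights for arrays, a single probe set per gene, the B-statistic as the call, and each array left out in turn.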

Additional observations from a re-analysis of the deposited data

How the results depend on the processing

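Of 18 alternative fits of limma, none turned the direction of a receptor, coregulator or target gene that was called, and with 3 arrays a group the calls near the threshold moved. With AAV-IFNα against Mock the B-statistic called 1 receptor in place of 3, 0 coregulators in place of 3 and 6 targets in place of 16. In the combination against Mock the B-statistic called 1 receptor in place of 2 and 2 targets in place of 5, and array weights called 4 receptors and 8 targets. There 1 coregulator in place of 0 was called under array weights, under centring of arrays on their median, under a trended and robust prior and under the filter above 6. Without each array in turn, receptors called numbered 2 to 3 with AAV-IFNα against Mock, 0 to 3 in the combination against Mock and 0 to 0 between the treated groups, coregulators 3 to 5, 0 to 1 and 0 to 0, and targets 9 to 20, 1 to 7 and 2 to 6. The causes were not tested. Replicate numbers did not pair the arrays (correlations of same-numbered deviations from -0.13 to 0.22), and the replicate block left 3, 2 and 0 receptors called and raised the targets in the combination against Mock to 9. Of the 34 receptors, 26 were called in no comparison under any fit. Apart from the B-statistic, the share of all probe sets called under each alternative is not given here. The counts under the alternatives are therefore not read as traits of the receptors, coregulators or targets. A further quantile normalization moved the median of all probe sets by under 0.1, to -0.07 with AAV-IFNα, and -0.03 and 0.03 in the other comparisons. Over the named genes and their alternatives, 811 values kept their direction and their side of the threshold, 89 lost the call and 15 gained one.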
